A study of Hydra vulgaris with 99 samples.

Results

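Regenerating tips of the freshwater polyp Hydra vulgaris were profiled by RNA sequencing, and 150 loci of 25879 are described here that were raised late, at 36 or 48 h after section, in all 3 regenerating series of the study. A locus is a group of transcript sequences that share a locus identifier in the deposited count table. Reads of all sequences of a locus were summed and expressed as CPM, the count scaled to the library total. The level of a group was taken as log2(mean CPM + 1), the rise as the level at a time minus the level at 0 h of the same series, and the mean rise as the average over the 3 series. A locus was kept when its mean rise was at least 0.8 and highest at 36 or 48 h, when each series rose by at least 0.4 and the mean level was at least 2 at that time, and when head and foot levels differed by less than 2. Loci whose lower level of head and foot exceeded the mean 0 h level of the 50% tips by 1 or more were dropped. This left 157 loci, and the 150 with the largest mean rise were taken.

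The animals were of strain Jussy, with no treatment, and all groups had 3 libraries, A, B and C. Apical tips from the 50% level (mid-gastric position, regrowing a head), apical tips from the 80% level (decapitation, regrowing a head) and basal tips from the 50% level (regrowing a foot) were each taken at 10 times, the first at the section (0 h), the next 0.5 h later and the last at 48 h. Homeostatic groups were intact animals, heads (apical regions), and feet (basal disk with the lower part of the peduncle). Each library came from the pooled tissue of 20 to 25 animals, so no value belongs to a single animal. No animal age was given.

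Hydra is a tube with a head, which carries the mouth and tentacles, at one end and a foot, which secretes adhesive material from its basal disk, at the other. A cut through the body column makes a wound on both sides, and the lower piece regrows a head while the upper piece regrows a foot. The early hours are known for wound closure and signalling at the cut, and the later hours for the rebuilding of the missing structure, with canonical Wnt signalling active in head-regenerating tips. The deposited identifiers could not be paired with gene names in the RefSeq table used (0 of its 28925 genes matched), so functions of the 150 loci are not given and markers of the labelled tissues could not be looked up. At most 4 identifiers are printed.

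Library totals were between 26401348 and 54273942 reads, with a median of 33209894. The libraries with the lowest mean correlation with their own group were replicate A of the apical 50% tips at 0 h (Pearson's r of 0.969 across loci) and replicate A of the basal 50% tips at 0 h (0.971), against a median of 0.990 over all 99 libraries. Since 0 h is the base of every rise, values without those libraries are given where they bear on a result. No pair of replicates was identical or agreed within sampling noise (99 pairs). These are bulk tissue samples, in which fewer cells of a type and less RNA per cell cannot be told apart.

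The loci were chosen by the mean rise at the peak, so it is given as a description, with no test. It was between 0.81 and 3.04 on the log2(CPM + 1) scale, with a median of 0.95. The mean rise was at least 1 in 61 loci and at least 2 in only 4, so most of the set changed modestly. Mean CPM over the 3 series at the peak was between 3.26 and 1589, with a median of 15.6 (CPM is not divided by transcript length, so levels are compared within a locus and not between loci). The last 3 loci inside the limit of 150 had mean rises of 0.808, 0.808 and 0.806, and the first 3 outside it had 0.806, 0.805 and 0.805, so the limit falls within a continuous range. All 150 passed the filter on low counts, which kept 20883 loci.

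The rise was gradual, and most of it came after 4 h. The median of the mean rise over the 150 loci stayed between 0.11 and 0.12 up to 4 h. By 8 h it was 0.32, by 16 h 0.48 and by 24 h 0.51. It then came to 0.76 by 36 h and to 0.94 by 48 h, when the median over all 20883 tested loci was 0.087. The number of loci with a mean rise of at least 0.4 was 26 for the 4 h tips, then 59 (8 h), 85 (16 h), 101 (24 h), 144 (36 h) and 150 (48 h). In the 4 h tips 50 loci were still below their 0 h level on this mean, and at 36 h none was.

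**Figure D1:**
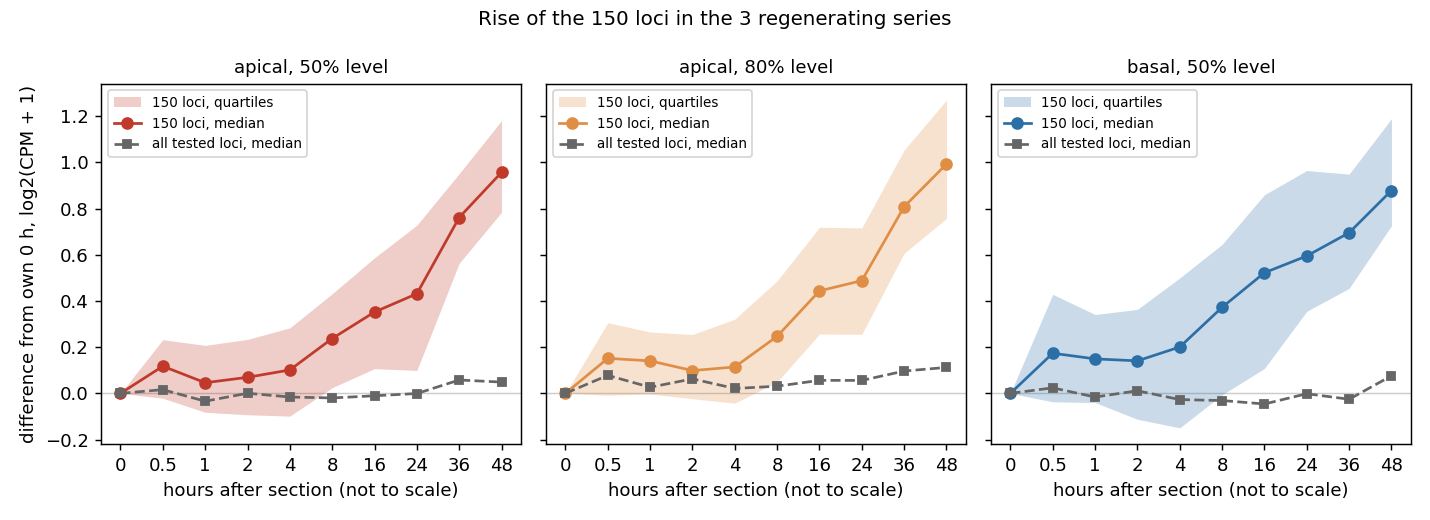
Level minus the 0 h level of the same series on the log2(CPM + 1) scale (vertical axis) against hours after section, not to scale (horizontal axis), in apical 50%, apical 80% and basal 50% tips. Solid lines are medians and bands the quartiles of the 150 loci, and dashed lines are medians of all tested loci, which stay at or below 0.11 in every series while the 150 loci reach medians of 0.96, 0.99 and 0.88 at 48 h.

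The time from which a locus stayed at or above 50% of its own peak rise differed widely. It was 4 h or earlier in 11 loci, 8 h in 17, 16 h in 21, 24 h in 34, 36 h in 58 and 48 h in 9. The most common time was therefore 36 h, but 49 loci had reached this mark by 16 h. The median peak rise did not follow this order: it was 1.17 in the 9 loci that reached the mark at 4 h, 0.88 in the 21 that reached it at 16 h and 0.98 in the 58 that reached it at 36 h.

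The mean rise was highest at 48 h in 132 loci and at 36 h in 18. The 18 loci had a median mean rise of 0.90 by 24 h, 1.08 by 36 h and 0.89 by 48 h, and their 48 h values were between 0.70 and 1.57. They had thus largely kept their rise at 48 h. Their head level was on median 0.02 above their foot level, against 0.57 above it in the 132 loci that peaked at 48 h, which is a description of values the choice of loci limited to within 2.

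The series followed the same course. At 48 h the median rise was 0.96 in apical 50% tips, 0.99 in apical 80% tips and 0.88 in basal 50% tips, against 0.05, 0.11 and 0.08 over all tested loci in those series. At 24 h it was 0.43, 0.49 and 0.59 in the same order, so the basal tips had the largest median at 24 h and the smallest at 48 h. The 3 libraries at 48 h all lay above the 3 libraries at 0 h in 133 loci in apical 50% tips (19.6% of all tested loci), 142 in apical 80% tips (34.2%) and 131 in basal 50% tips (23.3%). This held in all 3 series in 115 loci, beside 7.96% of all tested loci, and nothing is read from these counts because the choice of loci used these values.

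The reads of the 150 loci made up 1.10% ± 0.078 of the library in apical 50% tips at 48 h (SD, n = 3), against 0.513% ± 0.0038 at 0 h. They made up 1.08% ± 0.090 of the library in apical 80% tips at 48 h, against 0.579% ± 0.029 at 0 h. They made up 1.05% ± 0.092 of the library in basal 50% tips at 48 h, against 0.487% ± 0.019 at 0 h. The 48 h and 0 h groups did not overlap in any series, and nothing is read from this because the choice of loci used these values. The share was 0.736% ± 0.049 in intact animals, 1.18% ± 0.072 in heads and 0.919% ± 0.059 in feet.

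Median levels of the 150 loci in single libraries put intact animals and feet inside the range of the time course, and heads at or above its top. The median log2(CPM + 1) level was 4.09 ± 0.14 in apical 50% tips at 48 h (SD, n = 3), 4.13 ± 0.15 in apical 80% tips at 48 h and 4.00 ± 0.16 in basal 50% tips at 48 h. At 0 h it was 3.06 ± 0.05 in apical 50% tips, 3.07 ± 0.15 in apical 80% tips and 2.91 ± 0.07 in basal 50% tips. It was 3.59 ± 0.08 in intact animals, 4.29 ± 0.05 in heads and 3.90 ± 0.07 in feet. Heads therefore had the highest median of all 33 groups and basal 50% tips at 0 h the lowest. Over all tested loci the median level was also highest in heads, at 2.83. It was 2.77 in feet, 2.74 in intact animals and 2.49 to 2.52 in the 0 h tips, so part of these differences is shared by all tested loci. Head libraries, at 4.23 to 4.33, were above all 48 h libraries of apical 50% tips (3.94 to 4.22) and basal 50% tips (3.83 to 4.14). They overlapped those of apical 80% tips (3.96 to 4.26). Feet and the 36 h tips differed by about the spread between libraries.

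**Figure D2:**
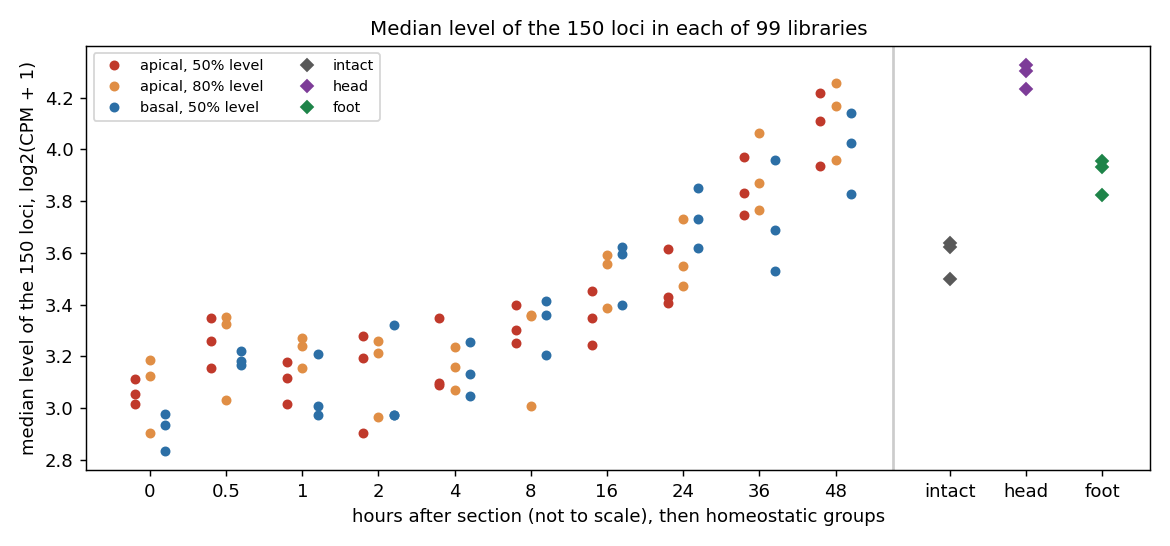
Median log2(CPM + 1) level of the 150 loci (vertical axis) in each of the 99 libraries, by hours after section, not to scale, and then in the homeostatic groups (horizontal axis). Each point is 1 library. The 48 h tips lie between 3.83 and 4.26, above every 0 h library (2.83 to 3.19), and intact animals (3.50 to 3.64) lie between them. The choice of loci used the 0 h and 48 h values, so their separation is not a result.

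The set held loci of either end. Head level was above foot level in 110 of the 150, by at least 1 in 39, and foot level was above head level by at least 1 in 13. Over all 20883 tested loci these counts were 10660, 1763 and 1181. The mean level of the 48 h tips lay between head and foot in 113 loci, above both in 27 and below both in 10, against 8795, 6094 and 5994 over all tested loci. These counts are given with no test, since the choice of loci used head, foot and 48 h levels.

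The choice of loci did not use the intact libraries, but it used head and foot levels and favoured loci low in the 0 h tips. The counts below are therefore not independent of the choice. Intact animals were lower than heads in most of the 150 loci. In edgeR's quasi-likelihood test with Benjamini-Hochberg adjustment over all tested loci, 84 loci were lower in intact animals than in heads and 5 were higher (adjusted p under 0.05), where 42.0% of all tested loci were called in this contrast, 22.5% higher and 19.5% lower. The median log2 fold change of intact animals over heads was -0.66 in the 150 loci and -0.04 over all tested loci, and 37 called loci differed by at least 1, beside 16.3% of all tested loci. Against feet, 37 loci were lower in intact animals and 10 were higher, where 19.8% of all tested loci were called, 10.2% higher and 9.60% lower. The median log2 fold change of intact animals over feet was -0.18 in the 150 loci and -0.04 over all tested loci, and 18 called loci differed by at least 1, beside 9.84% of all tested loci. Without replicate B the count against feet was 30 in place of 47.

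Of these loci, 15 were lower in intact animals than in both heads and feet, beside 3.46% of all tested loci, and 10 were lower than in heads and higher than in feet, beside 4.91%. The head and foot libraries entered the choice of loci as limits on their levels, while the intact level had no limit. These differences are thus affected by the choice but not bounded by it. The intact level was above the mean of the 0 h tips in 148 loci and below the mean of the 48 h tips in 149, against 12976 and 11745 of all 20883 tested loci. Nothing is read from these counts, since the loci were chosen for low 0 h and high 48 h levels.

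**Figure D3:**
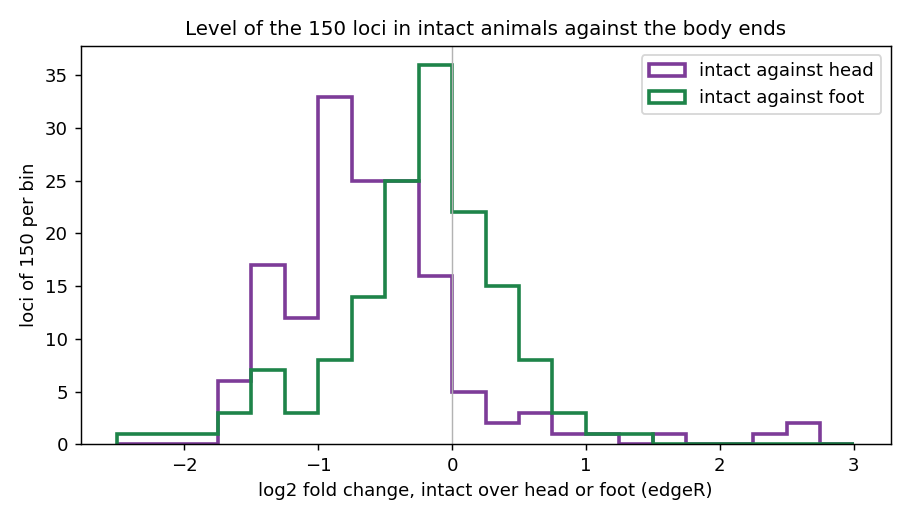
Number of the 150 loci (vertical axis) by log2 fold change of intact animals over heads or over feet from edgeR (horizontal axis, bins of equal width). The distribution against heads is centred on -0.66 and that against feet on -0.18, and a few loci reach beyond 2 above heads. The lowest value against feet, -3.43, lies outside the plotted range.

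The largest called differences with no overlap between libraries, among loci averaging 2 or more in log2 CPM, show both directions. The locus most raised in intact animals over heads had 27.2, 9.49 and 15.8 CPM in intact animals, against 2.74, 3.26 and 2.70 CPM in heads. Its log2 fold change was 2.69 (SE 0.44, adjusted p = 4.07e-07, edgeR), and its intact libraries were uneven. The next had 344, 110 and 241 CPM in intact animals, against 38.5, 49.7 and 29.4 CPM in heads (log2 fold change 2.67, SE 0.51). The locus most lowered in intact animals relative to heads had 5.75, 6.94 and 6.33 CPM in intact animals, against 25.2, 14.1 and 22.4 CPM in heads (log2 fold change -1.61, SE 0.30). The next had 325, 318 and 259 CPM in intact animals, against 1240, 635 and 974 CPM in heads (log2 fold change -1.58, SE 0.20). The locus most lowered relative to feet had 5.03, 3.60 and 3.81 CPM in intact animals, against 22.1, 18.7 and 15.2 CPM in feet. Its log2 fold change was -2.20 (SE 0.26, adjusted p = 1.15e-10, edgeR). In this locus the basal 50% tips at 48 h, with 11.5, 17.0 and 11.3 CPM, were near the feet. The next had 2.22, 2.94 and 10.4 CPM in intact animals, against 15.6, 22.8 and 16.1 CPM in feet (log2 fold change -1.78, SE 0.50). Its fold change lay between -2.93 and -1.31 with a letter left out, and it was not called without replicate B. Differences in the other direction were smaller. The locus most raised over feet had 15.1, 15.2 and 14.0 CPM in intact animals, against 8.68, 8.94 and 6.69 CPM in feet (log2 fold change 0.84, SE 0.16). The next, loc08832, had 11.5, 9.85 and 12.0 CPM in intact animals, against 5.88, 8.20 and 4.97 CPM in feet (log2 fold change 0.80, SE 0.15).

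The tips regrowing a head and a foot from the same 50% level were then compared at matched times, which asks whether loci raised on both sides of the cut were raised alike. At 48 h 41 of the 150 loci were higher and 11 were lower in apical than in basal tips in edgeR's quasi-likelihood test (adjusted p under 0.05). In this contrast 20.4% of all tested loci were called, 11.8% higher and 8.54% lower, and 34.7% of the 150 loci. Of the 52 called loci, 22 differed by at least 1 on the log2 scale, beside 7.96% of all tested loci. The median log2 fold change was 0.20 in the 150 loci and 0.01 over all tested loci. The choice of loci used these same libraries, through a mean rise over more apical than basal series. The share called and the majority of higher loci are therefore not independent of the choice.

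At 36 h 29 loci were higher and 22 lower in apical tips, where 12.9% of all tested loci were called, 5.41% higher and 7.54% lower. The difference was at least 1 on the log2 scale in 16 called loci, beside 5.70% of all tested loci. Of the 51 loci, 28 were called higher and 10 called lower at both times, and none was called in opposite directions. Without replicate B the count at 36 h was 29, and without replicate C it was 26. Without replicate A it was 40, with 16 higher and 24 lower, so the majority at 36 h turns with the libraries used. The choice of loci also used the 36 h libraries, so the counts at 36 h are not independent of it either.

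The calls at 48 h were also set beside the homeostatic ends, whose libraries are separate from those compared. Among the 41 loci higher in apical tips at 48 h, head level was above foot level in 40. Among the 11 loci lower in apical tips, foot level was above head level in 9. Among the 98 loci not called, head level was above foot level in 68. At 36 h head level was above foot level in 28 of the 29 loci higher in apical tips. Foot level was above head level in only 12 of the 22 lower ones, so the match was weaker on that side. Head and foot levels had entered the choice of loci as a limit on the size of their difference but not on its direction. The same match was not counted among the called loci outside this set. Whether it was closer here than among all called loci was therefore not tested.

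**Figure D4:**
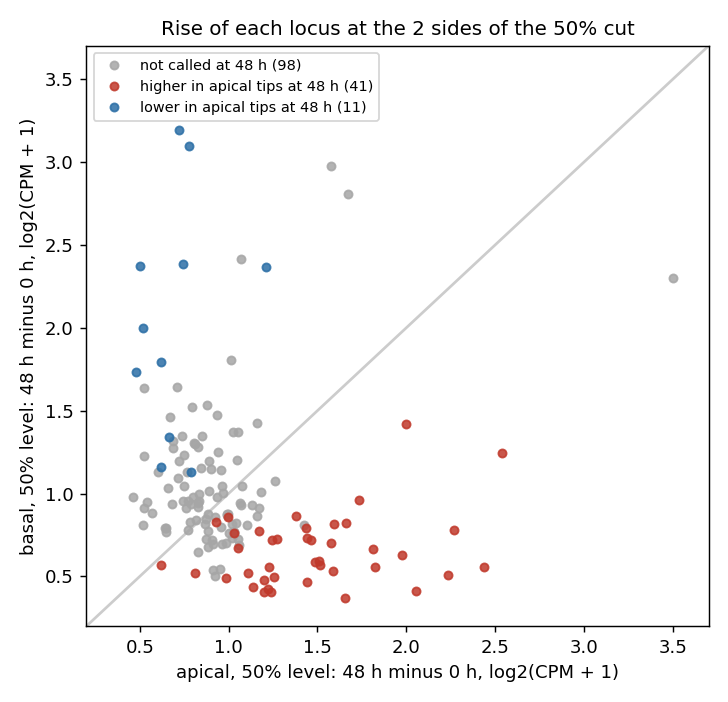
Rise from 0 to 48 h on the log2(CPM + 1) scale in apical 50% tips (horizontal axis) and basal 50% tips (vertical axis) for each of the 150 loci. Points are coloured by the edgeR call between the tips at 48 h (41 higher and 11 lower in apical tips, 98 not called), and points near the line rose alike.

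Among loci averaging 2 or more in log2 CPM, loc08832 had the largest called difference in favour of apical tips with no overlap between libraries. It was at 30.5, 26.4 and 27.6 CPM in apical 50% tips at 48 h, against 5.41, 8.95 and 7.40 CPM in basal 50% tips at 48 h. At 0 h it was at 4.43, 4.55 and 4.13 CPM in apical 50% tips, against 4.71, 4.60 and 4.55 CPM in basal 50% tips. The 3 apical 50% libraries at 48 h stood well above the basal 50% libraries at 48 h and the 0 h libraries of both sides. Those 0 h libraries were close together. The log2 fold change at 48 h was 1.99 (SE 0.15, adjusted p = 1.40e-18, edgeR). Up to 16 h its group means in all series were between 3.64 and 5.76 CPM, and in apical 50% tips it averaged 5.29 ± 0.38 CPM by 24 h and 11.3 ± 0.66 CPM by 36 h (SD, n = 3). It was at 27.4 ± 0.85 CPM in heads and 6.35 ± 1.67 CPM in feet.

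The locus loc11068 was at 14.1, 16.7 and 17.7 CPM in apical 50% tips at 48 h, against 4.67, 6.21 and 4.94 CPM in basal 50% tips. The groups did not overlap, and the log2 fold change was 1.64 (SE 0.17, adjusted p = 3.28e-12, edgeR). In apical 50% tips its mean CPM was 3.13 (0 h), 5.55 (4 h), 8.44 (24 h) and 12.9 (36 h). In basal 50% tips its mean CPM was 3.71 (0 h), 6.49 (4 h), 3.67 (24 h) and 4.61 (36 h). Both sides thus had a higher mean at 4 h than at 0 h, and apical means passed their 4 h value again from 16 h while basal means did not by 48 h. Heads had 20.1 ± 1.0 CPM and feet 6.43 ± 0.98 CPM.

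The locus loc20843 had the largest such difference in the other direction. It was at 8.78, 11.4 and 10.4 CPM in apical 50% tips at 48 h, against 41.5, 75.3 and 64.2 CPM in basal 50% tips. Every basal library was above every apical library, and the log2 fold change was -2.55 (SE 0.20, adjusted p = 8.86e-18, edgeR). Basal mean CPM was 4.33 (16 h), 9.34 (24 h), 39.4 (36 h) and 60.3 (48 h), so most of its rise fell after 24 h. The 48 h basal tips were above feet, which had 25.7 ± 4.3 CPM, and heads had 11.8 ± 1.4 CPM.

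The locus loc20951 was at 3.68, 7.85 and 5.61 CPM in apical 50% tips at 48 h, against 15.5, 26.8 and 21.3 CPM in basal 50% tips. Its log2 fold change was -1.88 (SE 0.30, adjusted p = 6.16e-07, edgeR), with no overlap. Basal mean CPM was 4.69 (8 h), 7.06 (16 h), 13.3 (24 h) and 16.9 (36 h), an earlier course than that of loc20843. Its feet had 19.6 ± 5.1 CPM and its heads 4.62 ± 0.95 CPM.

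At 36 h, among called loci averaging 2 or more in log2 CPM and with no overlap, the most raised in apical tips was another one. It had 56.1, 54.0 and 55.7 CPM in apical 50% tips, against 19.8, 18.2 and 19.1 CPM in basal 50% tips (log2 fold change 1.41, SE 0.13, adjusted p = 8.35e-14, edgeR). By the same criteria it was followed by loc11068, and the most lowered were loc20843 and loc20951 again. Over all 150 loci the log2 fold changes lay between -4.95 and 2.28.

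**Figure D5:**
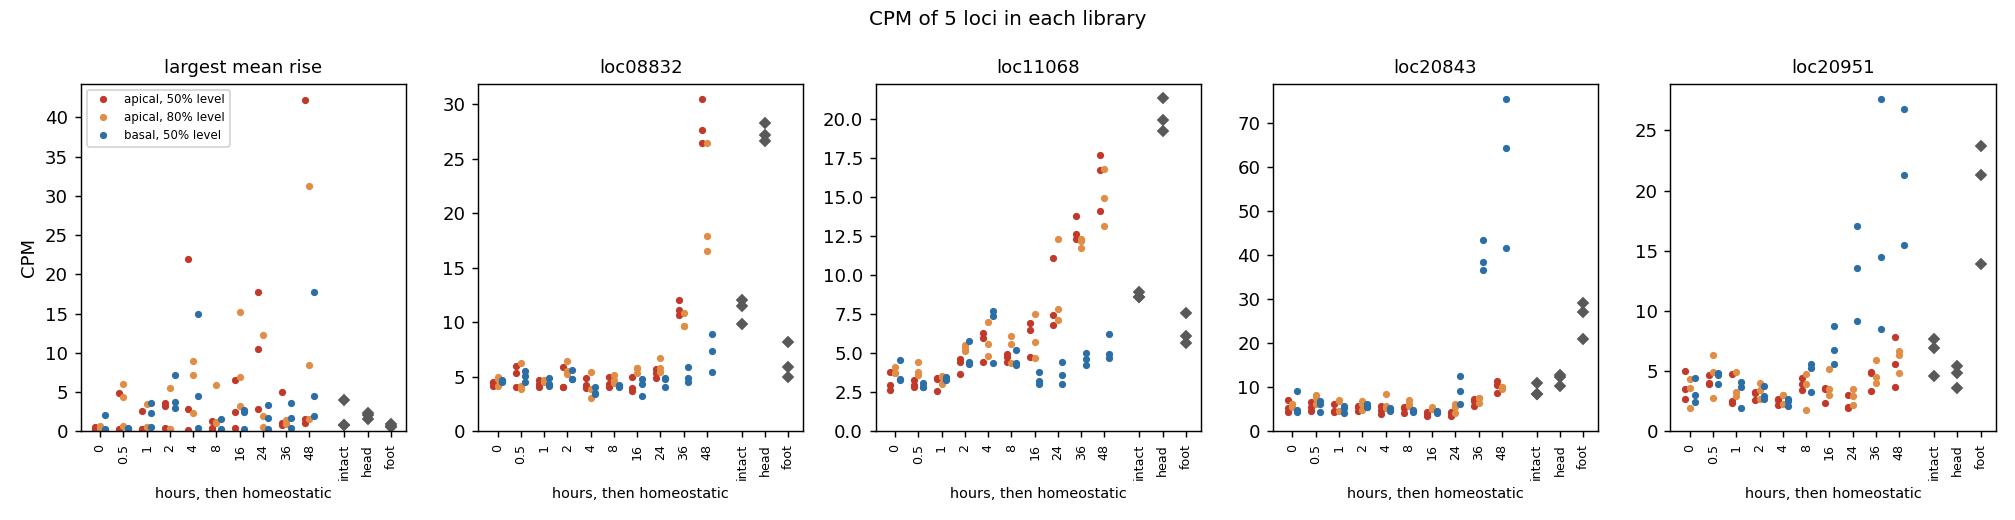
CPM of 5 loci (vertical axis, from 0, scaled for each panel) in each library by hours after section, not to scale, and then in intact animals, heads and feet (horizontal axis). Each point is 1 library. The locus with the largest mean rise varies widely between libraries of one group, loc08832 and loc11068 reach 48 h levels in apical 50% tips of 26.4 to 30.5 and 14.1 to 17.7 CPM, and loc20843 and loc20951 reach 41.5 to 75.3 and 15.5 to 26.8 CPM in basal 50% tips.

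The difference in the change from 0 to 48 h was tested as an interaction, which takes out what already differed between the sides at 0 h. The rise was larger in apical than in basal 50% tips in 24 loci and smaller in 6 (edgeR, adjusted p under 0.05), where 10.6% of all tested loci were called, 6.38% higher and 4.17% lower. The difference was at least 1 on the log2 scale in 20 of the 30, beside 6.59% of all tested loci. All 30 were also called at 48 h in the same direction. The count was 50 (37 and 13) with the replicate letter as a block within each time, 19 without replicate C, and 31 without the 0 h libraries of replicate A in both 50% series. The difference of changes was 2.08 (SE 0.21) on the log2 scale in loc08832 and 1.89 (SE 0.25) in loc11068. It was -2.38 (SE 0.28) in loc20843 and -2.05 (SE 0.43, adjusted p = 2.09e-04, edgeR) in loc20951. Since each series had to rise by at least 0.4 to enter the set, loci raised on 1 side only are outside it and these differences are bounded. The choice of loci used the rise of each series, so these counts are not independent of it.

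Heads regrown from different levels of the column were compared in the same way. At 48 h none of the 150 loci was called between apical 50% and apical 80% tips by edgeR at an adjusted p under 0.05, where 1.03% of all tested loci were called, 0.345% higher and 0.690% lower, and 0.441% with a difference of at least 1 on the log2 scale. The smallest adjusted p was 0.05045, 7 loci had an unadjusted p under 0.05, and DESeq2 called 1. With the replicate letter as a block within each time 4 loci were called, all higher in apical 50% tips. The log2 fold changes lay between -1.55 and 0.91 with a median of -0.00055, so the absence of calls does not show that the tips were alike.

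At 36 h 3 loci were lower in apical 50% than in apical 80% tips and none was higher by edgeR, where 3.34% of all tested loci were called, 1.35% higher and 1.99% lower. None of these 3 called loci differed by 1 or more on the log2 scale, beside 1.16% of all tested loci called with such a difference. The log2 fold changes of the 150 loci lay between -0.80 and 1.03. With the block within each time 7 loci were called, all lower. Without replicate A 1 was called, and without replicate B or replicate C 0 were called, so these calls rest on all 3 libraries. In all, 11 loci had an unadjusted p under 0.05, and DESeq2 called 3, all lower. The called locus with the largest difference and no overlap had 10.3, 11.3 and 13.2 CPM in apical 50% tips, against 15.5, 16.8 and 19.0 CPM in apical 80% tips (log2 fold change -0.56, SE 0.16, adjusted p = 0.0255, edgeR). The next had 19.2, 18.5 and 17.0 CPM in apical 50% tips, against 25.5, 26.3 and 25.5 CPM in apical 80% tips (log2 fold change -0.50, SE 0.14).

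For the change from 0 to 48 h, none of the 150 loci differed between apical 50% and apical 80% tips by edgeR, where 0.699% of all tested loci were called, 0.584% higher and 0.115% lower, and 0.575% with a difference of at least 1 on the log2 scale. The smallest adjusted p was 0.223, 18 loci had an unadjusted p under 0.05, and DESeq2 called 0. With the replicate letter as a block within each time 12 loci were called, 11 with a larger rise in apical 50% tips, although the letters did not pair these groups at 0 h. The difference of changes was above 0 in 97 of the 150 loci, with a median of 0.11, and lay between -1.18 and 0.99.

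The 2 loci with the largest mean rise behaved differently between libraries. The locus with the largest mean rise, 3.04, had 1.03, 1.54 and 42.2 CPM in apical 50% tips at 48 h, against 0.457, 0.565 and 0.195 CPM at 0 h. It had 8.48, 1.51 and 31.2 CPM in apical 80% tips at 48 h, against 0.314, 0.642 and 0.479 CPM at 0 h. It had 4.52, 17.7 and 1.94 CPM in basal 50% tips at 48 h, against 2.08, 0.217 and 0.230 CPM at 0 h. Its level at 48 h rested on 1 or 2 libraries per group, with replicate C highest in both apical series and replicate B highest in the basal one. It also had single high libraries earlier, with 8.31 ± 11.9 CPM at 4 h in apical 50% tips, and it reached no more than 2.02 CPM on average in any homeostatic group.

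The locus with the next largest mean rise, 2.04, was abundant and even by comparison. It had 840, 644 and 639 CPM in apical 50% tips at 48 h, against 284, 197 and 182 CPM at 0 h. It had 687, 513 and 637 CPM in apical 80% tips at 48 h, against 219, 142 and 227 CPM at 0 h. It had 1049, 1589 and 1017 CPM in basal 50% tips at 48 h, against 245, 130 and 145 CPM at 0 h. No 48 h library overlapped a 0 h library in any series. Feet had 1205, 731 and 1235 CPM and heads 226, 155 and 422 CPM.

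Uneven peaks of the first kind were rare. In only 2 of the 150 loci did any series have 1 library at the peak time above 3 times the median of its 3 libraries.

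Libraries that the choice had not used were examined by applying the rule to 2 letters and reading the rise in the letter left out (1 library a group, so with no test). With replicate A left out, 150 loci were chosen with a median mean rise of 1.12, and the median in replicate A was 0.72. In replicate A the mean rise was above 0 in 134 of them and at least 0.4 in 118, beside 15.4% of all tested loci at 48 h. With replicate B left out, 134 loci were chosen with a median of 0.96, and the median in replicate B was 1.02. In replicate B 132 were above 0 and 122 were at least 0.4, beside 21.0% of all tested loci. With replicate C left out, 134 loci were chosen with a median of 0.94, and the median in replicate C was 0.94. In replicate C 132 were above 0 and 128 were at least 0.4, beside 21.6% of all tested loci. All 3 series reached 0.4 in the letter left out in 62, 99 and 96 of the chosen loci for replicates A, B and C. Replicate A thus showed the smallest median rise. This held in apical 80% tips too, with medians of 0.82 in replicate A, 1.08 in replicate B and 0.90 in replicate C. The cause was not tested.

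Which loci fall inside the limits depended on the libraries and the scaling more than the rise itself did. Of the loci chosen without replicate A, B or C, 90, 93 and 89 were among the 150, and 100 of 150 were shared without the 0 h libraries of replicate A in both 50% series. Under TMM scaling, which sets libraries to a common centre, the median rise at 48 h was 0.85 in the 150 loci and 0.03 over all tested loci. The lowest mean rise at the peak was then 0.69 and the lowest rise of a series 0.31, 102 of the 150 still had a mean rise of at least 0.8, and 90 of the 108 loci chosen were shared.

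The choice of loci summed the sequences of each locus and did not use how the reads were divided among them. Of the 150 loci, 97 had 2 or more sequences, and 35.3% had a single sequence, against 46.6% of all loci. The division among sequences was tested at 48 h against 0 h, averaged over the series, with edgeR's diffSpliceDGE in the 93 loci with at least 2 sequences past the filter. It changed in 39 of them (adjusted p under 0.05), where 26.7% of 11000 tested loci were called, against 41.9% of the 93. In 38 of the 39 the largest change of share had the same sign in all 3 series. The share of 1 sequence changed by at least 10 percentage points in 24, beside 7.20% of all tested loci. The choice did use the locus totals at 0 and 48 h, and a total that rises through some of its sequences also changes their shares. These counts are therefore not independent of the choice.

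The locus with the largest change of form, which has 4 sequences, lost the dominance of 1 of them. In apical 50% tips that sequence held 12.1% ± 3.1 of the reads of the locus at 48 h (SD, n = 3), against 98.6% ± 1.2 at 0 h. In apical 80% tips it held 14.3% ± 5.1 at 48 h, against 98.5% ± 1.5 at 0 h. In basal 50% tips it held 51.4% ± 0.94 at 48 h, against 100% in each library at 0 h. The direction was thus shared, and the apical tips moved farther than the basal ones, though that difference was not tested. Its share was 24.2% ± 5.9 in intact animals, 7.61% ± 1.7 in heads and 10.7% ± 5.8 in feet. These shares rest on 44 to 68 reads of the locus per library at 0 h and on 101 to 400 at 48 h. The CPM of the sequence itself was between 0.966 and 2.30 in the 48 h tips, against 1.20 to 2.34 in the 0 h tips, so the rise of the locus lay in its other sequences. The adjusted p was 6.58e-33 (edgeR).

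In loc08832, which had the next largest change of form, 1 of 6 sequences was at or near 0 in the 0 h tips and in feet. In apical 50% tips that sequence held 78.4% ± 4.2 of the reads at 48 h (SD, n = 3), against 0 to 1.35% at 0 h. In apical 80% tips it held 72.9% ± 5.6 at 48 h, against 0 of 511 reads at 0 h, which allows a share of up to 0.587%. In basal 50% tips it held 1.94% ± 0.99 at 48 h, against 0 of 433 reads at 0 h, which allows a share of up to 0.693% (3 reads of the locus total over the 3 libraries, covering counting error only). The shares in the 3 basal libraries at 48 h, 2.63%, 0.797% and 2.38%, were far below the apical ones. That limit is pooled over 3 libraries, and a single basal library at 0 h allows a share of up to 2.36%. The share of 0.797% is thus not shown to be above 0 h. The share was 51.6% ± 7.0 in intact animals, 77.7% ± 2.8 in heads and 1.02% ± 0.67 in feet, so the 48 h apical tips and heads had overlapping shares. The adjusted p for the form of the locus was 3.86e-26 (edgeR), averaged over the series. The rise of the locus in apical tips and this sequence's appearance coincide in the same libraries, with 20.5 to 25.2 CPM of the sequence in apical 50% tips at 48 h.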

How the data were processed

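RNA was polyA-selected and made into directional Illumina TruSeq libraries, per the labels' protocols. The deposited count table holds raw whole-number counts per transcript sequence (79774 sequences), and a second deposited table holds the authors' normalized signal for 40479 of them, used here for 1 alternative only. Per the submitters' processing notes, cutadapt 1.11, Salmon 0.7.2 and DESeq2 were used, with no role stated; the reference transcriptome is not given in the sources used here. Salmon divides reads among similar sequences by estimation, so levels of near-identical sequences and of forms within a locus are uncertain.

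Counts were summed per locus and fitted with edgeR 4.0.16 in R 4.3.3: filterByExpr, TMM factors (0.876 to 1.17), 1 coefficient for each of 33 groups over all 99 libraries, quasi-likelihood F-tests, and Benjamini-Hochberg adjustment over 20883 loci. Calls used an adjusted p under 0.05 with no fold minimum. Form was tested with diffSpliceDGE over 11000 loci. The fits were tested on simulated data. Alternatives used DESeq2 1.42.0 and limma 3.58.1, other normalizations, filters and fits, and left-out libraries.

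The loci, lists and tests were chosen with earlier results of these data known. Loci given singly are the 2 with the largest mean rise, the 2 largest called differences per direction and contrast with no overlap between libraries (any called ones for differences of changes) among loci averaging 2 or more in log2 CPM, and the 2 largest called changes of form. Same-lettered libraries deviated together in the apical 50% and basal 50% groups at 0, 36 and 48 h (correlations of deviations from 0.112 to 0.720) and in the apical groups at 36 and 48 h (0.181 to 0.582), so letters were taken to pair those groups; the pairing comes from the data, not from the labels.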

Additional observations from a re-analysis of the deposited data

Results flagged for a closer look

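The change from 0 to 48 h differed between apical 50% and basal 50% tips, by the test of the difference itself, in 30 of the 150 loci (edgeR's quasi-likelihood test, adjusted p under 0.05), beside 10.6% of all tested loci. The difference of changes on the log2 scale was 2.08 in loc08832 and 1.89 in loc11068, which rose more in apical tips. It was -2.38 in loc20843 and -2.05 in loc20951, which rose more in basal tips. In all 4 loci the libraries of the 2 sides did not overlap at 48 h. The choice of loci used the rise of each series, so the count of 30 is not independent of it.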

How the results depend on the processing

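Counts of the 150 loci called are given here as values under each alternative. Apical 50% against basal 50% tips at 48 h gave 52 calls, 40 to 45 with 1 replicate letter left out, 55 with the letter as an additive replicate block, 78 with the replicate block within each time and 22 with a fold minimum of 1 on the log2 scale. At 36 h the 51 calls (29 higher, 22 lower) became 26 to 40 with a letter left out (16 higher and 24 lower without replicate A), 76 with the block within each time and 16 with the fold minimum. Apical 50% against apical 80% tips at 48 h gave 0 calls, 0 to 1 with a letter left out, 1 with DESeq2, with the newer quasi-likelihood method, with the additive block and with only the libraries of the contrast, and 4 with the block within each time. At 36 h the 3 calls became 0 to 1 with a letter left out, 7 with the block within each time, 8 with only the libraries of the contrast and 0 with the fold minimum. The change to 48 h between apical 50% and basal 50% tips gave 30 calls, 19 to 29 with a letter left out and 50 with the block within each time. Between apical 50% and apical 80% tips it gave 0, also with each letter left out, and 12 with the block within each time. Letters did not pair the apical 50% and apical 80% groups at 0 h, or intact animals with heads or feet (lowest correlations -0.071, -0.106 and -0.081). Intact animals against heads gave 89 calls, 78 to 89 with a letter left out, 105 with the block within each time and 37 with the fold minimum. Intact animals against feet gave 47, 30 to 39 with a letter left out, 63 with the block within each time and 18 with the fold minimum. Transcript form gave 39, 27 to 34 with a letter left out, 40 with the additive block and 24 with a share change of at least 10 points. Of the 150 loci, 90 were chosen again with TMM-scaled CPM, 91 with the authors' normalized values and 89 to 93 with a letter left out. Of the loci given singly, 3 kept their direction and lost their call when a letter was left out: both of apical 50% against apical 80% tips at 36 h, and 1 of intact animals against feet (log2 fold change -1.31 without replicate B). No other alternative moved a total of calls by over 1.5 times, and no locus given singly turned its direction. The cause of these shifts was not tested. The number of libraries, 3 a group, limits the precision of every value.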
